A study of Mus musculus with 15 samples.

Results

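The 9 genes described here encode the NAIP and NLRC4 inflammasome and its effectors. They are the sensors Naip1, Naip2, Naip5 and Naip6, the adaptors Nlrc4 and Pycard, the protease Casp1, the pore-forming protein Gsdmd and the cytokine Il18. They were taken by gene symbol from a table of 26844 genes, and all 9 were present and passed the filter on low values. They were selected on their shared function, with their normalised counts in all 4 groups already known, and no single comparison was named as the one that chose them. The fold changes and adjusted p-values given for them therefore describe these libraries and are not independent evidence about the list.

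RNA was sequenced from the distal jejunum of C57BL/6 males, 13 to 15 weeks of age. Wild-type animals (WT) were compared with mice that carry a whole-body knockout of Aster-B and Aster-C (KO), 2 proteins that move cholesterol between the plasma membrane and the endoplasmic reticulum. There were 4 libraries of WT and 3 of KO on a control diet with 0.08% cholesterol, and 4 of WT and 4 of KO on the same diet with 0.01% ezetimibe, a drug that blocks intestinal cholesterol uptake. All 4 groups thus ate cholesterol, and the deletion is present in every tissue, not only in the gut. The comparisons ask what the loss of both proteins changes on each diet, what ezetimibe changes in each genotype, and whether the effect of the drug differs between genotypes.

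As background, NAIP proteins sit in the cytosol and bind single bacterial proteins. NAIP5 and NAIP6 bind flagellin, NAIP1 the needle and NAIP2 the inner rod of type III secretion systems. A NAIP with its ligand makes NLRC4 assemble into a wheel that activates caspase-1, directly or through the adaptor ASC, the product of Pycard. Caspase-1 cuts gasdermin D, which then forms pores in the plasma membrane, and cuts the IL-18 precursor to the active cytokine. In the gut epithelium this route is known for expelling infected enterocytes and for releasing IL-18. The mRNA levels given here say nothing about assembly or cleavage, which are protein events.

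Library depth, as whole reads recovered from the values, was 13855034 to 19307079. The targeted genes Gramd1b and Gramd1c were lower in every KO library than in every WT library of the same diet. Median log2 fold changes over the 14299 genes tested lay within 0.01 of 0 in all comparisons. WT control replicate 4 and KO ezetimibe replicate 3 stood at opposite ends of the first principal component, which held 27.7% of the variance. The 12 enterocyte markers fit the labelled tissue, with summed levels of 764572 to 1146630 normalised counts per library. Of 8 neutrophil markers 5 were in the table, and they summed to 3.17 to 18.3.

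The Naip copies form a cluster on chromosome 13 (mm10, 100144063 to 100452869, all on the minus strand). Naip2 (ENSMUSG00000078945) spans 100144063 to 100202092, Naip5 (ENSMUSG00000071203) 100211739 to 100246323, Naip6 (ENSMUSG00000078942) 100281121 to 100317674 and Naip1 (ENSMUSG00000021640) 100407764 to 100452869. The pseudogenes Naip3-ps1 and Naip3 lie between them. The coding sequences of Naip5 and Naip6 are both 4209 bases long and 97.0% identical, with a longest identical run of 229 bases. The other pairs of copies are 89.5% to 91.9% identical. The stretch of 120 coding bases in which Naip5 and Naip6 differ most is shown because only reads over such differences can tell the copies apart. It is read from the GENCODE M21 transcripts, 5′ to 3′, from coding base 7 to 126, counted from the first base of the start codon, and capitals mark bases that differ from Naip5.
Naip5: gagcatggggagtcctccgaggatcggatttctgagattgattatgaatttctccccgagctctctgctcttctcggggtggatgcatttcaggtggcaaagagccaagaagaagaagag
Naip6: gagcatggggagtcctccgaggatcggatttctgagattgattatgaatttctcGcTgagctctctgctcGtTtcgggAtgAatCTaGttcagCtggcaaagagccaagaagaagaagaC
Naip1: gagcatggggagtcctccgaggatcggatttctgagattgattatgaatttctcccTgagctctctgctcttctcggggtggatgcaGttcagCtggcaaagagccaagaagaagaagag
Naip2: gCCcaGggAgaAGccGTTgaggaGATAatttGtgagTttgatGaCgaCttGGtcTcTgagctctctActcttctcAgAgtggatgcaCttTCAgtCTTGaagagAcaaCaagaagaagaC
Over this window Naip6 differs from Naip5 at 11 positions, Naip1 at 3 and Naip2 at 36. Of all 50-base stretches of Naip5 transcript, 36.9% also occur in another gene, and 22.3% occur in Naip6. For 100-base stretches these shares are 16.2% and 6.44%. Naip1, Naip2 and Naip6 share 31.5%, 19.1% and 21.5% of their 50-base stretches with another gene. The values of single Naip copies are therefore uncertain, since the authors' counting could assign or drop the shared reads. Of 50-base stretches, Casp1, Il18 and Gsdmd share 0%, Nlrc4 1.09% and Pycard 11.7% with another gene. Pycard also shares 10.3% of its 100-base stretches.

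The 250 bases before the RefSeq start of each Naip copy were compared too, because the 4 copies had fold changes of one sign with ezetimibe in KO. Aligned together with the 50 bases after the start (300 bases per copy), they were less alike than the coding sequences, at 58.2% to 73.1% identity. The windows are not equivalent upstream regions. Of the 250 bases, 59 of Naip6 and 5 of Naip1 lie in annotated Naip exons, and 0 of Naip2 and Naip5. The RefSeq start of Naip6 (100316616) lies inside its GENCODE gene, and that of Naip5 (100247336) outside its own. In the 250 bases alone, Naip2 and Naip5 share exact runs of at least 15 bases, which Naip1 and Naip6 do not share with any other copy. Both windows are shown 5′ to 3′ on the minus strand (RefSeq, GRCm38.p6), Naip2 from chr13:100202123-100202372 and Naip5 from chr13:100247337-100247586, with the shared runs in capitals.
Naip2: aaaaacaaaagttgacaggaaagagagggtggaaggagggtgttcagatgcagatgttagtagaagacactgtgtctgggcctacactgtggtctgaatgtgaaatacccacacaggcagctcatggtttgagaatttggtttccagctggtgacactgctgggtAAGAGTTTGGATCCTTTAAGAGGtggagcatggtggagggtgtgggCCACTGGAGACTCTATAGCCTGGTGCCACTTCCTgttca
Naip5: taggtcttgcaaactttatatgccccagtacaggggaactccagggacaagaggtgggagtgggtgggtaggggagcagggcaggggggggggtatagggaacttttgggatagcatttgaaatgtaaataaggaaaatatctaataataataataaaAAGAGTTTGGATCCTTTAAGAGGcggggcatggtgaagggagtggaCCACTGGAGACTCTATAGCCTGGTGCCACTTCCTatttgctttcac
The capitals cover 57 bases in each window, with a longest run of 34. RefSeq promoters were matched for 8 of the 9 genes, Gsdmd being the exception. They were searched on both strands, from 250 bases before to 50 after the start, for the core of the interferon-stimulated response element, GAGGAAGT (a PU.1 core), CACGTG (an E-box) and TCACNCCAC (a sterol element core). No match was found in the 4 Naip windows, which says only that these letters are not there. CACGTG occurred once in Casp1, 137 bases before the start, and in 7.15% of 32851 promoters. GAGGAAGT occurred once in Pycard, on the reverse strand 44 bases before the start, and in 3.2% of promoters.

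Naip6 was the sole member called in a simple comparison, and its lowest group was KO control. On the control diet it had 3982, 3867, 3414 and 2847 normalised counts in WT and 2013, 1987 and 2322 in KO. On ezetimibe it had 2939, 3143, 4964 and 3168 in WT and 4123, 4995, 4504 and 4355 in KO. The 3 KO libraries on the control diet were below every other library, and 1 WT library on ezetimibe lay well above the other 3 of its group. In KO, Naip6 rose with ezetimibe from 2107 ± 186.5 (SD, n = 3) to 4495 ± 368.8 (SD, n = 4), which is 1.09 ± 0.16 on the log2 scale (SE, adjusted p = 0.00953, limma) and 2.13-fold. It ranked 7th by p among all genes in that comparison and was 1 of 9 members called, against 0.727% of all genes (0.434% called higher and 0.294% lower). Its adjusted p was 0.0797 without KO control replicate 1 and 0.0619 without KO control replicate 2, at log2 fold changes of 1.06 and 1.05. In WT the fold change with ezetimibe was −0.01 ± 0.148 (SE, adjusted p = 0.999, limma).

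On the control diet Naip6 was at a log2 fold change of −0.73 ± 0.16 in KO against WT (SE, adjusted p = 0.0632, limma), which missed the threshold although the groups did not overlap. The authors' deposited table lists it at −0.74 with a standard error of 0.174 and an adjusted p of 0.00364. It is the sole member in either of the authors' deposited tables, which hold 424 genes for the control diet and 72 for ezetimibe. On ezetimibe the difference was 0.37 ± 0.148 (SE, adjusted p = 0.268, limma), with the highest WT library inside the KO range. The genotype by diet interaction of Naip6 was 1.10 ± 0.218 on the log2 scale (SE, unadjusted p = 0.000126, adjusted p = 0.681, limma), rank 2 of all genes by p. By limma 0% of genes were called for the interaction, and an unadjusted p under 0.05 was seen for 7.02%. DESeq2 called 5 genes, Naip6 among them (1.08, adjusted p = 0.0229), while edgeR and voom called 0. Without WT ezetimibe replicate 3, the high library, the limma adjusted p of Naip6 was 0.0193 at 1.27. The response to ezetimibe in KO, the genotype difference on the control diet and the interaction share the same 3 KO control libraries, so they are not separate observations.

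**Figure D1:**
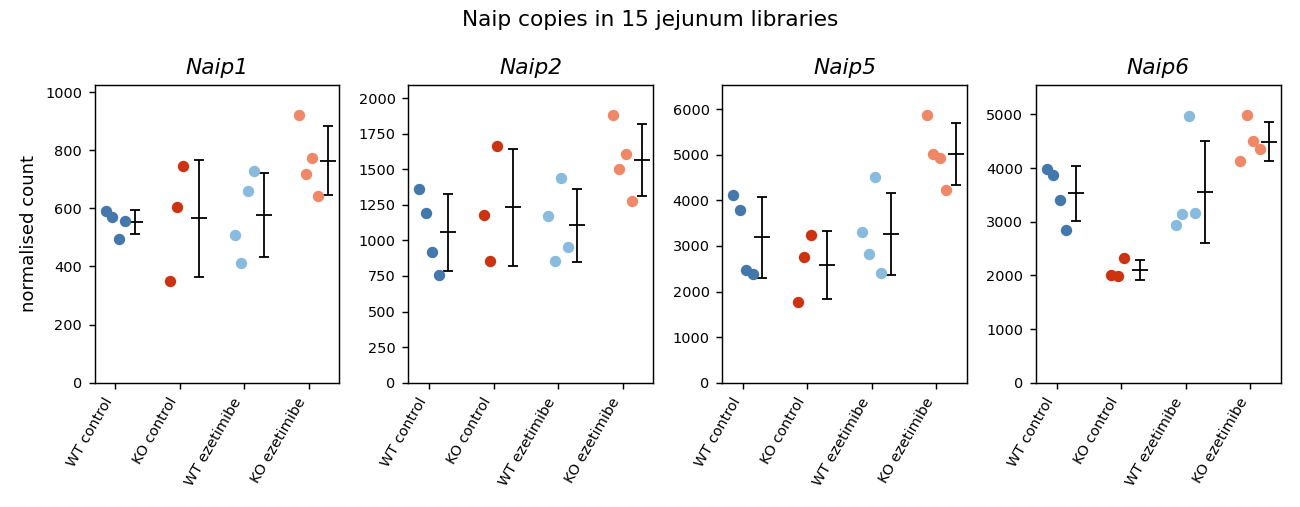
Normalised counts (y axis, from 0) of the 4 Naip copies in each library, by group on the x axis, with points for libraries and bars for the group mean ± SD. The 3 KO control libraries lie between 1987 and 2322 for Naip6, below the other 12, and the KO ezetimibe group has the highest mean for each copy.

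Naip5 encodes the other flagellin sensor. It had 4127, 3783, 2465 and 2390 normalised counts in WT and 1774, 2748 and 3243 in KO on the control diet. With ezetimibe it had 3313, 2818, 4510 and 2418 in WT and 5882, 5013, 4927 and 4219 in KO. The 4 KO ezetimibe libraries were above all KO control libraries, while the 2 WT groups covered each other's range. The log2 fold change with ezetimibe in KO was 0.99 ± 0.242 (SE, adjusted p = 0.0563, limma), just over the threshold. It was called by limma without KO control replicate 3 (adjusted p = 0.0417 at 1.17) and without KO ezetimibe replicate 4 (adjusted p = 0.0435 at 1.07), and by DESeq2 (adjusted p = 0.00661), but not by edgeR (adjusted p = 0.0631) or voom (adjusted p = 0.0615). In all, 5 of 20 alternatives called it, and its highest adjusted p among them was 0.182. Against WT on ezetimibe Naip5 was at 0.65 ± 0.224 (SE, adjusted p = 0.243, limma), and on the control diet at −0.30 ± 0.242 (SE, adjusted p = 0.605, limma).

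Naip1, the needle sensor, had 589.2, 569.4, 494.5 and 557.3 normalised counts in WT and 348.2, 603.5 and 744.1 in KO on the control diet. With ezetimibe it had 509, 412.2, 660.3 and 728.8 in WT and 922.1, 719.4, 772.9 and 642.3 in KO. The KO control libraries spread widely and every pair of groups overlapped in the 4 simple comparisons. Naip2, the rod sensor, ranged from 758.1 to 1364 in WT and from 853.3 to 1667 in KO on the control diet, and from 857.3 to 1440 and from 1274 to 1884 on ezetimibe. Its groups overlapped in the same 4 comparisons. In KO given ezetimibe, Naip1 was at a log2 fold change of 0.49 (limma adjusted p = 0.205) and Naip2 at 0.38 (limma adjusted p = 0.34). All 4 copies thus had positive fold changes with ezetimibe in KO, of which 1 passed the test. In WT the 4 fold changes with ezetimibe lay between −0.01 and 0.07, each with a limma adjusted p of 0.999.

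Since the copies share reads, their sum was also described. It was 8329 ± 1674 normalised counts in WT (SD, n = 4) and 6494 ± 1356 in KO (SD, n = 3) on the control diet. On ezetimibe it was 8501 ± 2074 in WT (SD, n = 4) and 11836 ± 985.2 in KO (SD, n = 4). The lowest KO ezetimibe library, at 10491, was above the highest KO control library, at 7976, but below the highest WT ezetimibe library, at 11574. Per kb of exon, Naip6 made up 36.1% ± 3.0 of the 4 copies in WT control, 27.1% ± 3.9 in KO control, 35.1% ± 2.95 in WT ezetimibe and 31.8% ± 3.88 in KO ezetimibe (SD, n = 4, 3, 4 and 4). Naip5 made up 41.9%, 42.4%, 42.2% and 46.1% in the same order.

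The pseudogenes in the cluster were also counted. Naip3-ps1 averaged 207 normalised counts over all libraries, against 618 for Naip1. Naip3, which shares 14.5% of Naip5's 50-base stretches and 22.5% of Naip1's, had 47.2 ± 11.7 normalised counts in WT control (SD, n = 4), 25.3 ± 8.15 in KO control (SD, n = 3), 36.7 ± 14 in WT ezetimibe (SD, n = 4) and 44.3 ± 10.1 in KO ezetimibe (SD, n = 4). Its log2 fold change with ezetimibe in KO was 0.80 (limma adjusted p = 0.142), and that of Naip3-ps1 was 0.71 (limma adjusted p = 0.0812). The 15 other tested genes within 500 kb did not share this pattern of signs. With ezetimibe in KO their log2 fold changes ran from −0.47 to 0.28 with a median of −0.19, 5 of the 15 were positive and none was called by limma, with 6 at an unadjusted p under 0.05. None of the 15 was called in the other 3 simple comparisons, where 1, 2 and 0 had an unadjusted p under 0.05. Averaged over diets, 1 of them was called in KO, Ccnb1, a mitotic cyclin, which fell by 0.99 (limma adjusted p = 0.0225).

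**Figure D2:**
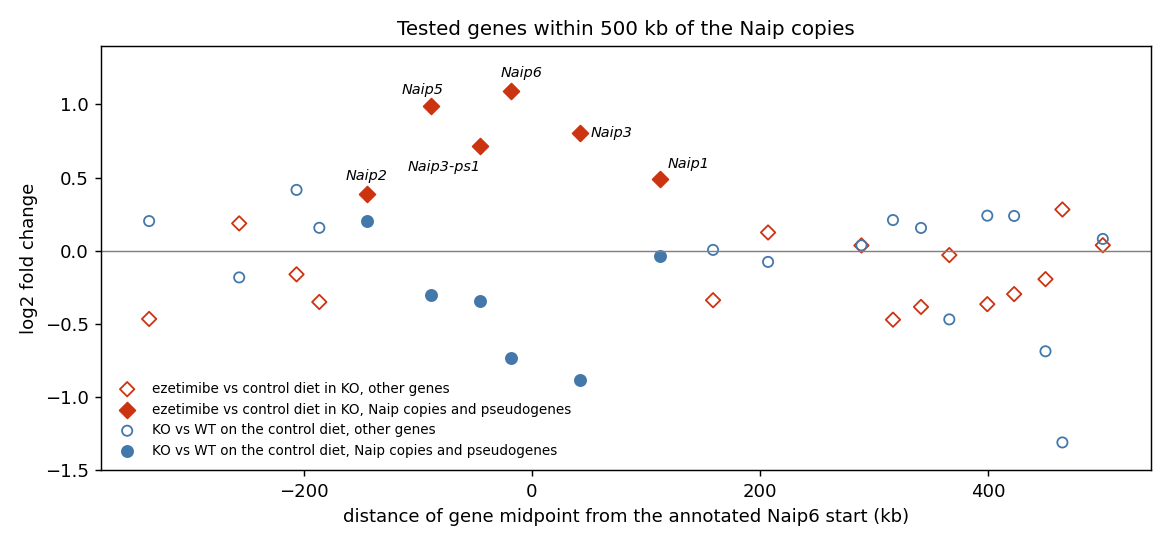
Log2 fold change (y axis) of each tested gene within 500 kb of the Naip copies against the distance of its midpoint from the annotated start of Naip6 in kb (x axis). Filled symbols are the 4 copies and the pseudogenes Naip3 and Naip3-ps1, open symbols the 15 other genes, diamonds ezetimibe in KO and circles KO against WT on the control diet. With ezetimibe in KO the 6 filled diamonds lie between 0.38 and 1.09, above all open diamonds, of which the highest is 0.28.

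Nlrc4 encodes the adaptor that all NAIPs engage (ENSMUSG00000039193, chromosome 17, 74425438 to 74459142, minus strand). It had 1728, 1272, 1840 and 1436 normalised counts in WT and 1730, 1410 and 1578 in KO on the control diet, and 1446, 1373, 1999 and 1970 in WT and 1640, 1915, 2341 and 1825 in KO on ezetimibe. The 4 groups overlapped, and the highest library was 1.84 times the lowest. Its fold change was largest with ezetimibe in KO, at 0.29 ± 0.163 on the log2 scale (SE, adjusted p = 0.301, limma).

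Pycard encodes ASC, the adaptor that links sensors to caspase-1 (ENSMUSG00000030793, chromosome 7, 127989708 to 127993867, minus strand). On the control diet it had 712.3, 1097, 972.6 and 1547 normalised counts in WT and 639.5, 1112 and 997.5 in KO. On ezetimibe it had 860.6, 1356, 898 and 1204 in WT and 903.9, 774.1, 521.9 and 655.1 in KO. The KO ezetimibe group was the lowest by its mean, at 713.7 ± 163.3 (SD, n = 4), with 1 library inside the range of WT ezetimibe. The difference from WT on ezetimibe was −0.60 ± 0.237 (SE, adjusted p = 0.263, limma), and averaged over diets it was −0.41 ± 0.175 (SE, adjusted p = 0.178, limma). Pycard's shared stretches are mostly those of the opposite-strand Gm45205, which averaged 6.46 normalised counts.

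Casp1 encodes the protease that NLRC4 activates (ENSMUSG00000025888, chromosome 9, 5298517 to 5307265, plus strand). It had 2039, 2452, 2624 and 2159 normalised counts in WT and 2083, 2025 and 2241 in KO on the control diet, and 2652, 2552, 2632 and 2600 in WT and 2411, 2353, 2249 and 1810 in KO on ezetimibe. All KO libraries on ezetimibe were below all WT libraries on it, and WT ezetimibe was the tightest group, at 2609 ± 43.34 (SD, n = 4). The log2 fold change was −0.25 ± 0.0992 (SE, adjusted p = 0.263, limma). Groups did not overlap for 9.93% of all genes in that comparison and were lower in KO without overlap for 4.84%, so 1 of 9 members is near the background.

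Gsdmd, which encodes the pore-forming gasdermin D (ENSMUSG00000022575, chromosome 15, 75862327 to 75867408, plus strand), was lowest in WT control. It had 9317, 6958, 7077 and 6306 normalised counts in WT and 8387, 9739 and 9800 in KO on the control diet. On ezetimibe it had 8888, 8006, 9984 and 11828 in WT and 10642, 11451, 12449 and 9863 in KO. The KO ezetimibe libraries were all above the KO control libraries, and 1 WT control library reached the levels of the other groups. Log2 fold changes were positive in the 4 simple comparisons, from 0.21 to 0.38, and none passed the test (limma adjusted p from 0.292 to 0.665). Averaged over genotypes, ezetimibe gave 0.32 ± 0.0999 (SE, adjusted p = 0.094, limma), and averaged over diets, KO gave 0.27 ± 0.0999 (SE, adjusted p = 0.122, limma). Without WT control replicate 1, its highest WT control library, these 2 values were 0.38 and 0.33 and both were called by limma (adjusted p = 0.0351 and 0.0376).

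Il18 encodes the IL-18 precursor (ENSMUSG00000039217, chromosome 9, 50554827 to 50581840, plus strand) and was lower on ezetimibe in both genotypes. On the control diet it had 602.5, 569.4, 769.6 and 1006 normalised counts in WT and 941.4, 750.1 and 986.7 in KO. On ezetimibe it had 311.5, 296.7, 546.2 and 547.8 in WT and 450.9, 410.6, 296.6 and 508.1 in KO. All 8 ezetimibe libraries were below all 7 control diet libraries. The share of all genes whose diets separate in this way was not computed. Averaged over genotypes, Il18 fell by 0.96 on the log2 scale with ezetimibe (SE 0.171, adjusted p = 0.00883, limma), or 1.95-fold. In that comparison 2 of the 9 members were called, Il18 lower and Naip6 higher, against 2.48% of all genes (1.74% higher and 0.734% lower).

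Neither genotype alone passed for Il18. The log2 fold change was −1.12 ± 0.251 in KO (SE, adjusted p = 0.0521, limma) and −0.81 ± 0.232 in WT (SE, adjusted p = 0.38, limma). In KO it was called by DESeq2 (adjusted p = 0.00219), and by limma without KO ezetimibe replicate 1 (adjusted p = 0.0477) or replicate 4 (adjusted p = 0.0292). EdgeR (adjusted p = 0.0505) and voom (adjusted p = 0.0563) did not call it, and 6 of 20 alternatives did. The interaction was −0.30 ± 0.342 (SE, adjusted p = 0.83, limma), so the effect of ezetimibe was not shown to differ between genotypes. KO against WT gave 0.30 ± 0.251 on the control diet (SE, adjusted p = 0.619, limma) and 0.00 ± 0.232 with the drug (SE, adjusted p = 0.997, limma). Il18 is overlapped on the opposite strand by Bco2, which encodes a carotenoid-cleaving enzyme, and by Tex12, which encodes a meiotic chromosome protein, and shares 0 exon bases with either. Bco2 had 1239 ± 153 normalised counts in WT control (SD, n = 4) and 1059 ± 239 in WT ezetimibe (SD, n = 4), and with ezetimibe averaged over genotypes its log2 fold change was −0.18 (limma adjusted p = 0.349). Tex12 had 20.1 ± 7.57 in WT control (SD, n = 4), 16.9 ± 5.51 in KO control (SD, n = 3), 15.6 ± 5.12 in WT ezetimibe (SD, n = 4) and 8.17 ± 1.91 in KO ezetimibe (SD, n = 4). With ezetimibe Tex12 was at −0.94 in KO (limma adjusted p = 0.125) and at −0.63 averaged over genotypes (limma adjusted p = 0.149), the same sign as Il18. Naip6 with ezetimibe averaged over genotypes was at 0.54 ± 0.109 (SE, adjusted p = 0.0174, limma), with adjusted p = 0.052 without KO control replicate 1 and 0.0539 without KO control replicate 2.

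**Figure D3:**
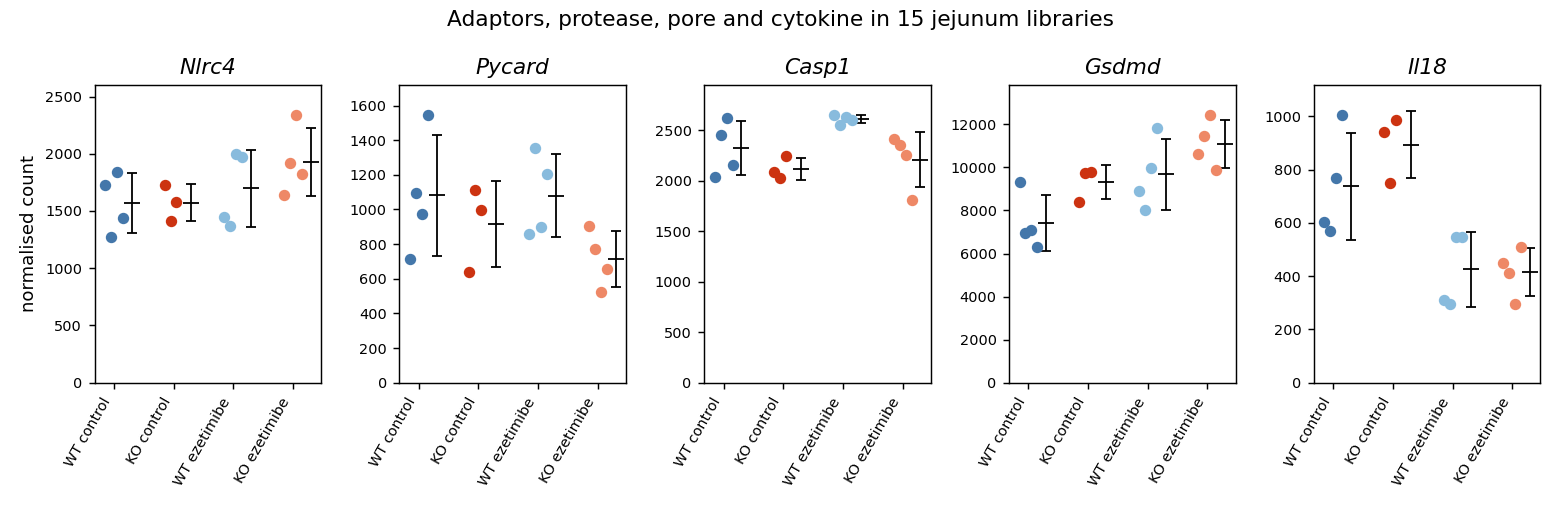
Normalised counts (y axis, from 0) of the adaptors Nlrc4 and Pycard, the protease Casp1, the pore protein Gsdmd and the cytokine Il18 in each library, by group on the x axis, with points for libraries and bars for the group mean ± SD. For Il18 the 8 ezetimibe libraries lie between 296.6 and 547.8 and the 7 control diet libraries between 569.4 and 1006.

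Read over all 9 genes, the 4 simple comparisons gave few calls. No member was called in KO against WT on the control diet, where 0.371% of all genes were, nor on ezetimibe (0.00699%), nor with ezetimibe in WT (0.217%). Unadjusted p-values were under 0.05 for 2, 5 and 2 members, and for 14.7%, 16.4% and 5.08% of all genes. DESeq2 called 1 member in the first of these comparisons, Naip6, among 452 genes it called in all, and 0 members in the other 2, while edgeR and voom called 0 in all 3. With ezetimibe in KO, unadjusted p-values were under 0.05 for 4 of 9 members and for 22.9% of all genes. Member medians were −0.03, 0.21, 0.04 and 0.29 in the 4 comparisons on the log2 scale, in the order KO on the control diet, KO on ezetimibe, ezetimibe in WT and ezetimibe in KO. Groups did not overlap for 1 member in each of the first 3 (Naip6, Casp1 and Il18, all lower), against 12.2%, 9.93% and 3.47% of all genes, or 5.57%, 4.84% and 1.21% lower. For ezetimibe in KO this held for 4 members, Naip5, Naip6 and Gsdmd higher and Il18 lower, against 18% of all genes (8.64% higher and 9.38% lower). Averaged over diets, no member was called in KO, where 4.04% of all genes were, and unadjusted p-values were under 0.05 for 4 members and 22.2% of all genes.

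**Figure D4:**
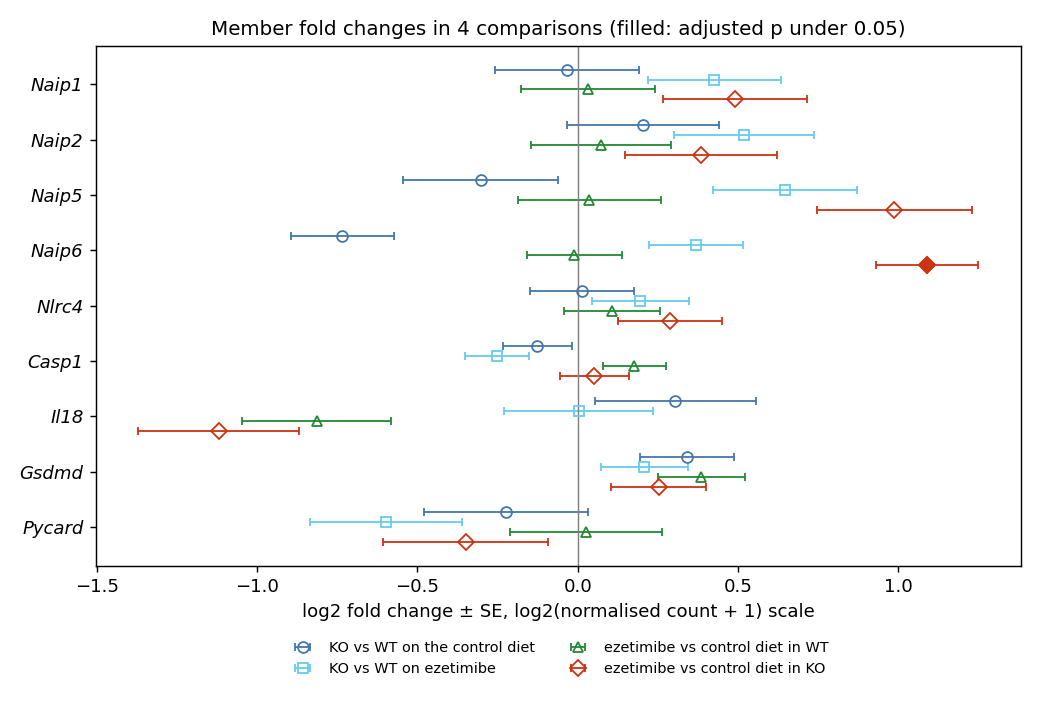
Log2 fold change ± SE (x axis) of each member (y axis) in the 4 simple comparisons on the log2(normalised count + 1) scale, with filled symbols for an adjusted p under 0.05. The filled diamond is Naip6 with ezetimibe in KO, at 1.09, and the points of Il18 with ezetimibe lie at −1.12 in KO and −0.81 in WT.

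Levels were set in order per kb of annotated exon. The length used joins the exons of all annotated transcripts of a gene, whichever of them are expressed. Where rare transcripts add to that length, the value per kb is too low. Pycard is given 3800 exon bases in a gene that spans 127989708 to 127993867. Its place in the order is therefore uncertain. In WT control the means ran from Gsdmd (3119 normalised counts per kb) over Casp1 (1549), Il18 (715), Naip5 (613), Naip6 (517), Nlrc4 (326), Pycard (285) and Naip2 (218) to Naip1 (99.8). Neighbours whose library ranges overlapped were Il18 and Naip5, Naip5 and Naip6, Nlrc4 and Pycard, and Pycard and Naip2. Gsdmd, Casp1 and Naip1 kept the first, second and last place in every group. Il18 was in the third place on the control diet in both genotypes, at 715 and 866, and in the fifth on ezetimibe, at 413 and 404, behind both flagellin sensors. Naip6 stood below Nlrc4 in KO control, at 309 against 327 with overlapping ranges, and above it in the other groups. In KO ezetimibe Naip5 (963) and Naip6 (658) did not overlap each other.

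**Figure D5:**
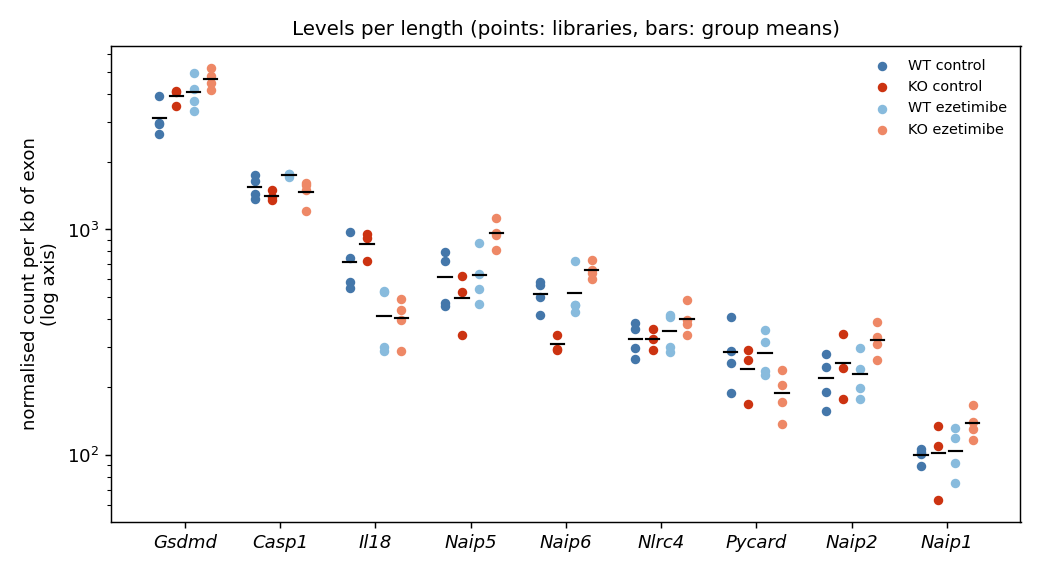
Normalised counts per kb of exon (y axis, log scale) of the 9 members (x axis, in the order of WT control), with points for libraries in 4 groups and bars for group means. Gsdmd lies above 2600 in every library, and the Il18 means, 715 and 866 on the control diet, are 413 and 404 with ezetimibe.

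Markers of other cells moved beside these results. In bulk tissue, fewer cells of a type and less RNA per cell cannot be told apart. In KO on the control diet, where Naip6 was lowest, 3 of 11 proliferating crypt markers were called lower by limma, with a list median of −1.31 and summed levels of 2523 to 5070 normalised counts in WT and 1809 to 2731 in KO. The 8 Paneth cell markers had a median of −1.68 with 0 called by limma, though all 8 had an unadjusted p under 0.05. Their sums were 19443 to 64985 in WT and 10314 to 17169 in KO. Averaged over diets, limma called 8 of 11 crypt and 3 of 8 Paneth cell markers lower in KO. The authors' deposited table for the control diet also lists several markers of both lists as lower in KO. In KO on ezetimibe against KO control, where Naip6 rose and Il18 was lower, the macrophage list had a median of −1.60 with 1 of 9 called lower, C1qc. The mean log2 level of its 9 genes ran from 6.15 to 6.86 in KO control and from 4.76 to 5.74 in KO ezetimibe, and from 5.69 to 6.89 and 5.26 to 6.02 in WT on the 2 diets. Its summed levels did not show the same direction, with 1857 to 3031 normalised counts in KO control, 2757 to 3966 in KO ezetimibe, 2002 to 2815 in WT control and 2256 to 2792 in WT ezetimibe. All 12 T and NK cell markers had positive fold changes with ezetimibe in KO and in WT, with medians of 0.53 and 0.44 and 0 called. In KO against WT on the control diet all 12 were negative, with a median of −0.67 and 0 called by limma, 10 of them at an unadjusted p under 0.05. They summed to 4691 to 7937 in WT control, 3646 to 4862 in KO control, 6783 to 9325 in WT ezetimibe and 5050 to 6873 in KO ezetimibe. The 12 enterocyte markers had medians of 0.15 with ezetimibe in KO and 0.09 in KO on the control diet, with 0 called in each. In KO against WT on ezetimibe, where the 4 Naip copies had positive fold changes, 11 of 12 enterocyte markers (median 0.29) and 8 of 8 villus tip markers (median 0.38) were positive, with 0 called. Villus tip markers summed to 49460 to 69316 in WT ezetimibe and 61754 to 92756 in KO ezetimibe. No marker of these lists in the table was at 0 in all libraries, and the part of these markers in the member results was not tested.

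Other genes of the pathway were read from lists put together by function. Of 14 other inflammasome sensors and adaptors 13 were in the table, 8 passed the filter on low values and 0 were called by limma in the 4 simple comparisons. Nlrp6, a sensor of the gut epithelium, had 4738 ± 824 normalised counts in WT control (SD, n = 4), and with ezetimibe in KO its log2 fold change was 0.12 (limma adjusted p = 0.716). Nlrp9b, a sensor of viral RNA in enterocytes, had 1081 ± 362 in KO control (SD, n = 3) and 1922 ± 492 in KO ezetimibe (SD, n = 4), at 0.85 ± 0.24 (SE, adjusted p = 0.0694, limma). Nlrp1b was at 0.69 ± 0.222 in the same comparison (SE, adjusted p = 0.0922, limma). Nod1, a receptor of bacterial peptidoglycan, was called when averaged over diets, lower in KO by a log2 fold change of −0.70 ± 0.18 (SE, adjusted p = 0.0422, limma).

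Of the 8 tested caspases other than Casp1 none was called in the simple comparisons. Averaged over diets, Casp12 fell in KO by 1.49 (SE 0.297, adjusted p = 0.0221, limma) at low levels, with 17.5 ± 4.21 normalised counts in WT control (SD, n = 4) and 5.27 ± 3.41 in KO control (SD, n = 3). Casp4, which encodes the mouse sensor of cytosolic lipopolysaccharide caspase-11, was at −0.59 in KO on ezetimibe (limma adjusted p = 0.237). None of the 7 tested gasdermin and membrane rupture genes was called in any comparison. Gsdmc3, of that list, was with ezetimibe in KO at 2.08 ± 0.531 on the log2 scale (SE, adjusted p = 0.0574, limma).

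In the IL-1 family 9 of 13 genes were tested. Il1rn, the natural antagonist of the IL-1 receptor, fell at low levels with ezetimibe in KO from 20.1 ± 5.16 (SD, n = 3) to 4.88 ± 1.26 (SD, n = 4), or −1.84 ± 0.322 (SE, adjusted p = 0.0271, limma). Il18bp, which encodes the secreted protein that binds and blocks IL-18, went the other way from Il18. It had 158 to 196 normalised counts in WT control, 99.8 to 128 in KO control, 240 to 245 in WT ezetimibe and 174 to 569 in KO ezetimibe. Averaged over genotypes, Il18bp rose with ezetimibe by 0.80 ± 0.196 (SE, adjusted p = 0.0445, limma), while Il18 fell by 0.96. Il33, another epithelial IL-1 family cytokine, was at −0.40 in that comparison (limma adjusted p = 0.163).

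Among 12 upstream regulators, all tested, none was called in the simple comparisons. Averaged over genotypes, Irf8 rose with ezetimibe by 0.47 ± 0.12 (SE, adjusted p = 0.0496, limma). IRF8 is known to drive Naip and Nlrc4 transcription in macrophages. Irf8 had 1421 ± 85 normalised counts in KO control (SD, n = 3) and 2123 ± 573 in KO ezetimibe (SD, n = 4). In WT it had 1760 ± 283 on the control diet and 2327 ± 414 on ezetimibe (SD, n = 4 each). The log2 fold change with ezetimibe was 0.55 ± 0.175 in KO (SE, adjusted p = 0.0931, limma). In WT it was 0.40 ± 0.162 (SE, adjusted p = 0.841, limma), while the 4 Naip copies there lay between −0.01 and 0.07. A link of Irf8 to the Naip levels was not tested. Of 9 genes of necroptosis and extrusion, all tested, Zbp1, a sensor of nucleic acids, and Mlkl, the pore-forming protein of necroptosis, rose with ezetimibe averaged over genotypes. Zbp1 was at 1.75 ± 0.322 (SE, adjusted p = 0.0103, limma) and Mlkl at 0.64 ± 0.132 (SE, adjusted p = 0.0202, limma). Mlkl was also called lower in KO averaged over diets, at −0.54 ± 0.132 (SE, adjusted p = 0.0355, limma). None of the 6 tested eicosanoid genes was called in any comparison.

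Likeness to the members was measured by Pearson's r of log2 levels over the 15 libraries. It was ranked among 9652 tested genes with a mean of at least 50 normalised counts, with members and unnamed gene models left out. The libraries share depth, group and cell makeup, so r is a description only. The mean of the 4 Naip copies was most like Clic5 (0.883), Btnl5-ps (0.881), Sema4g (0.877), Rabgap1l (0.876) and Naip3-ps1 (0.875). Clic5 had 8915 ± 2978 normalised counts in KO control (SD, n = 3) and 13798 ± 3150 in KO ezetimibe (SD, n = 4). Genes most like Nlrc4 included Nhlrc2 (0.937), Fndc3a (0.931), Xiap (0.908) and Pdpk1 (0.908). Il18 was most like Slc25a12 (0.862), Bace2 (0.835), Psme3 (0.83), Idh3b (0.81) and Colgalt1 (0.798). The mitochondrial carrier Slc25a12 had 127 ± 20.8 normalised counts in WT control (SD, n = 4) and 107 ± 5.35 in WT ezetimibe (SD, n = 4).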

How the data were processed

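RNA-seq of 15 distal jejunum libraries was analysed. The submitters' processing notes name STAR 2.6.0c, FastQC, DESeq2 and the mm10 build. No source used here names the read counter, its use of strand or the annotation. The deposited main table held, per the file headers, counts that the authors had normalised with DESeq2 (a signal), and 100% of its values were whole reads divided by a size factor (tolerance 0.001). Depth was 13855034 to 19307079 reads per library. The 2 tables of the authors' own comparisons gave log2 fold changes and adjusted p-values, per the file headers, used only where named.

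Tests were made on log2(value + 1) with limma 3.58.1 and its mean-variance trend. The added 1 understates changes of low genes. All 15 libraries entered 1 fit. The 14299 genes that reached 10 in at least 3 libraries were tested, and those with a Benjamini-Hochberg adjusted p under 0.05 were called. Averaged comparisons take the mean of both diets or genotypes. Groups came from the labels, and the labels do not say that samples are separate mice, so p-values may measure technical spread only. Alternatives were pseudocounts of 0.5 and 5, no filter, a stricter filter (mean of 50 or more), TMM and quantile scaling, robust moderation, the compared groups alone, the replicate number as a block, count tests on the recovered reads (edgeR 4.0.16 quasi-likelihood, DESeq2 1.42.0, voom, R 4.3.3) and each library left out. The fit was first tested on simulated data.

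Exon lengths, coordinates and transcripts were from GENCODE M21 (GRCm38, the assembly of mm10), coding sequences were aligned with MAFFT 7.526, and promoters were from RefSeq. Named are the members, called genes and up to 3 genes with the smallest p of each pathway list, the 5 most alike genes, and called neighbours. Nlrp6, Bco2, Tex12 and C1qc were chosen after their values were seen. A few genes and a motif that belong to these choices are not reported here. The members and lists were chosen with earlier results of these data known.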

Additional observations from a re-analysis of the deposited data

Results flagged for a closer look

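Naip6 in WT on ezetimibe had 1 library, replicate 3, at 4964 normalised counts, far from the other 3 at 2939 to 3168. The gap to the nearest was 0.887 of the range of the group. It was the sole such case among 27 groups of 4 libraries (9 genes in 3 groups). Chance alone flags about 1 group in 20, so 1 case among 27 is about what chance gives. The 27 are not independent, because the Naip copies share reads. The same library had the highest Naip5, Naip2 and Nlrc4 levels of its group, at 4510, 1440 and 1999 normalised counts.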

How the results depend on the processing

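Of 63 member fold changes, 1467 alternative values were computed and none of the called values changed sign. There were 45 changes of sign, all among values that were not called. With ezetimibe in KO, 1 member was called in the main analysis (of 104 genes in all), 3 with a mean of at least 50 (of 330), 2 with TMM scaling (of 134) and 3 with DESeq2 (of 1155), and 0 to 3 with each library left out. In KO against WT on the control diet 0 were called, and 1 with DESeq2 (of 452). For the interaction 0 were called, 1 with DESeq2 and 0 to 1 with each library left out. Averaged over diets the range was 0 to 1 with a library left out, and averaged over genotypes it was 1 to 3, against 0 and 2. Without the 2 libraries that lie farthest apart on the first principal component, an alternative chosen after seeing the data, 1 member was called for ezetimibe averaged over genotypes, Il18, with Naip6 at an adjusted p of 0.0669 (limma).

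The replicate numbers are not said to mark a shared day or litter. Deviations of same-numbered libraries correlated between −0.242 and 0.263. The library of the same number was the best match in some cases and not in others. These values do not settle whether the numbers pair the samples. With the replicate block, 1 member (Naip6) was called in KO against WT on the control diet, among 231 genes in all against 53, and 3 (Naip5, Naip6 and Il18) with ezetimibe in KO, among 1915 genes against 104.

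Naip6 with ezetimibe in KO was called in 18 of 20 alternatives, at log2 fold changes of 1.03 to 1.16. Il18 averaged over genotypes was called in 27 of 27, and Naip6 there in 24 of 27. Gene totals varied far more, from 3 to 452 around 53 in KO against WT on the control diet, 1 to 78 around 1 on ezetimibe, 17 to 93 around 31 with ezetimibe in WT, 5 to 1915 around 104 with ezetimibe in KO, 0 to 5 around 0 for the interaction, and 33 to 1236 around 578 and 108 to 1489 around 354 in the averaged comparisons. The cause was not tested. Depth does not limit the members, the lowest of which had 296.6 normalised counts in its lowest library. The sharing of reads among the Naip copies does limit them.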
